A study of Mus musculus with 2 samples.

Results

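Inhibitory neurons of the spinal cord make GABA with the glutamate decarboxylases Gad1 and Gad2 and load it, together with glycine, into synaptic vesicles through Slc32a1. Neurons that also release glycine recover it through the glycine transporter Slc6a5, and many inhibitory neurons of the dorsal horn lack that transporter and use GABA without it. The barcodes described here hold RNA of inhibitory neurons and no read RNA of Slc6a5. A barcode is the tag of 1 droplet and stands for 1 nucleus unless nuclei or free RNA were mixed in it. Members carried at least 2 unique molecular identifiers (UMIs, counts of single captured RNA molecules) summed over Gad1, Gad2 and Slc32a1. They carried 0 UMIs of Slc6a5, 0 UMIs of Slc17a6, the vesicular glutamate transporter of excitatory neurons, and at most 1 UMI summed over Pkd2l1 and Pkd1l2, the channels of neurons that contact the cerebrospinal fluid. The rule found 337 members among 23814 barcodes, 241 of 16362 in the injury core library (1.47%, exact binomial 95% interval 1.29 to 1.67%) and 96 of 7452 in the distal library (1.29%, 1.04 to 1.57%).

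The nuclei came from frozen spinal cord of male iNeuroD1GFP mice aged 8 weeks by the label, a line in which tamoxifen switches on the proneural transcription factor NeuroD1. The sources used here do not name the promoter that drives the transgene. The cord was injured at postnatal day 60, tamoxifen followed on days 5 to 8 after injury at 100 mg/kg/day, and tissue was taken on day 10. Both libraries, 1 of the injury core and 1 of the distal region, which the extraction protocol calls peri-injury, therefore carry the same transgene, injury and tamoxifen. The labels give 3 mice and do not say whether they were pooled. With 1 library per region no value has a replicate, no test was possible and no p-value is given. All intervals below are exact 95% intervals and cover the error of counting UMIs, not that between mice or preparations.

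The libraries held 30469263 UMIs (core, median 1303 per barcode) and 19049572 UMIs (distal, median 1743 per barcode). Both are labelled male. The core library had 16 UMIs of Xist, the RNA of the inactive X chromosome, and 8247 UMIs of 4 Y-linked genes, whereas the distal library had 14779 Xist UMIs and 3707 Y-linked UMIs. Of the 96 distal members, 40 carried Xist alone, 17 carried Y-linked RNA alone, 19 carried both and 20 carried neither, and 0 of 241 core members carried Xist. The distal library thus goes against its label, and the comparison between regions is also given without the distal members that held Xist. The 2 libraries shared 38 barcode sequences, of which 0 were members. Doublets were not removed.

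Members were shallow. They held 644 to 19334 UMIs in the core (median 2583, with a median of 1439 genes) and 664 to 25139 UMIs in the distal library (median 4217, with a median of 2041 genes). Inhibitory barcodes with at least 1 Slc6a5 UMI and otherwise the same rule, 83 in the core and 44 in the distal library, were deeper, with medians of 4557 and 6857 UMIs. Of all inhibitory barcodes the members made up 74.4% (69.3 to 79.0%) in the core and 68.6% (60.2 to 76.1%) in the distal library. This share was lower in each deeper class of the core library. It was 100% (26 of 26) in core barcodes of 500 to 1000 UMIs and 90.0% (63 of 70) at 1000 to 2000 UMIs. It was 75.6% (93 of 123) at 2000 to 4000 UMIs, 63.2% (48 of 76) at 4000 to 8000 UMIs and 37.9% (11 of 29) from 8000 UMIs. In the distal library the share was 100% (3 of 3) at 500 to 1000 UMIs and 80.0% (12 of 15) at 1000 to 2000 UMIs, the second of which lies below the next deeper class. It was 83.8% (31 of 37) at 2000 to 4000 UMIs, 67.3% (37 of 55) at 4000 to 8000 UMIs and 43.3% (13 of 30) from 8000 UMIs. A count of 0 Slc6a5 UMIs in a shallow barcode therefore says less than in a deep one, and how many members are glycinergic neurons whose Slc6a5 RNA was not captured was not tested. For the same reason every comparison below weights the other set to the members' UMIs per barcode.

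**Figure D1:**
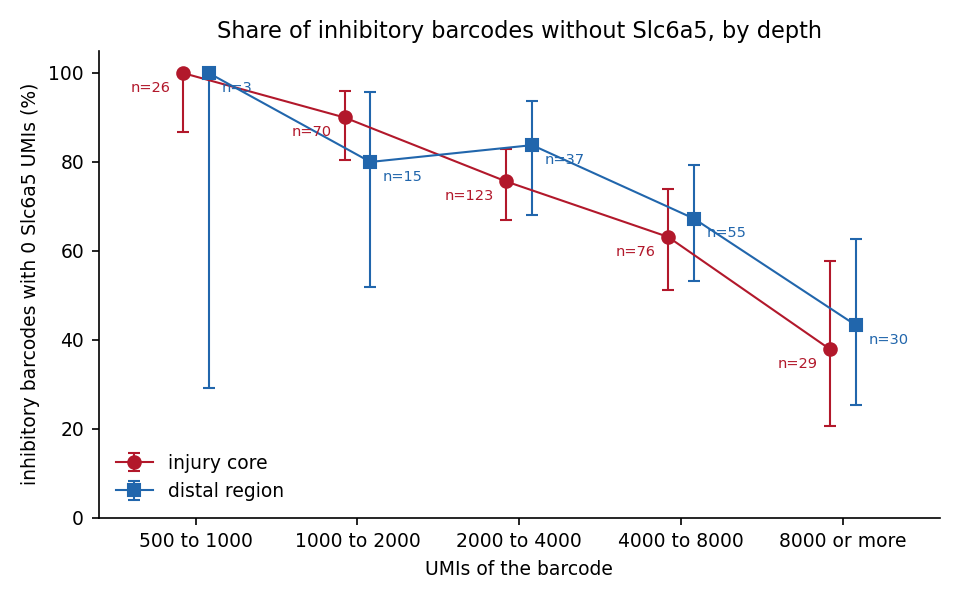
The vertical axis gives the percent of inhibitory barcodes with 0 Slc6a5 UMIs and the horizontal axis the UMIs of the barcode, with injury core circles and distal region squares, exact binomial 95% intervals as bars and n as the number of inhibitory barcodes. In the core the share ran from 100% at 500 to 1000 UMIs to 37.9% from 8000 UMIs.

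Members were chosen by their UMIs of these rule genes, whose values are therefore a description. In the core 194 members carried exactly 2 UMIs of the 3 inhibitory genes, 38 carried 3 and 9 carried 4 or more, with a highest total of 7. In the distal library 70 members carried 2, 12 carried 3 and 14 carried 4 or more, with a highest total of 9. Gad2 was read in 182 of 241 core members and 70 of 96 distal members, Gad1 in 154 and 64, and the vesicular transporter Slc32a1 in 44 and 17. Just outside the rule lay 1451 core and 394 distal barcodes with 1 UMI of the 3 genes. Exactly 1 Slc6a5 UMI kept out 58 core and 25 distal barcodes, and exactly 1 Slc17a6 UMI kept out 24 and 8. Oligodendrocyte barcodes, which should lack these genes and carried at least 3 UMIs over Mog, Mag, Mobp, Opalin and Ermn, met the whole rule in 11 of 315 cases in the core (3.49%, 1.76 to 6.16%) and in 35 of 3026 cases in the distal library (1.16%, 0.807 to 1.60%). At matched depth, other barcodes met it in 2.56% in the core and 2.39% in the distal library. From 4000 to 8000 UMIs, 5 of 55 oligodendrocyte barcodes met the rule in the core, against 43 of 850 other barcodes, and 17 of 460 met it in the distal library, against 20 of 300 other barcodes. From 8000 UMIs, 5 of 48 oligodendrocyte barcodes met it in the core, against 6 of 149 other barcodes, and 12 of 231 in the distal library, against 1 of 41. Seen from the members, 11 of 241 in the core and 35 of 96 in the distal library were at the same time oligodendrocyte barcodes, as were 4 of 83 core and 19 of 44 distal barcodes with Slc6a5. In the core, the share meeting the rule was thus no higher among other barcodes than among oligodendrocyte barcodes, so that share alone is at background. How many members hold inhibitory RNA from other nuclei was not tested.

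The label was next checked with genes that the rule did not use. Pax2, a transcription factor of dorsal inhibitory neurons, had 71.3 CPM (a gene's summed UMIs relative to all UMIs of the same barcodes, on the usual CPM scale) in core barcodes without UMIs of any inhibitory rule gene, 123 CPM with 1 such UMI, 147 CPM with 2 and 204 CPM with 3 or more. In the distal library Pax2 had 17.5, 74.3, 110 and 133 CPM in the same order. The level, not matched for depth, was therefore higher at each added UMI in both libraries. Relative to barcodes without inhibitory UMIs at the same depth, Pax2 was 2.45-fold higher in core members (1.98 to 3.01) and 7.97-fold higher in distal members (5.53 to 11.4). The calcium channel subunit Cacna2d3 was 1.80-fold and 3.74-fold higher in core and distal members. Nxph1, a secreted ligand of neurexins, was 1.62-fold and 2.72-fold higher, and Nrxn3, a presynaptic neurexin, 1.55-fold and 3.31-fold. Pax8, a paralogue of Pax2 in dorsal inhibitory neurons, was 2.34-fold and 5.96-fold higher, and Gbx1, a homeobox gene of the dorsal horn, 2.20-fold and 3.29-fold. Lmx1b, a transcription factor of dorsal excitatory neurons, was at 0.30 times the level of barcodes without inhibitory UMIs in core members and at 0.34 times in distal members. Summed over the set, the members thus carried more RNA of these inhibitory neuron markers than barcodes without inhibitory UMIs. These ratios were smaller in the core. Pax2 in barcodes without inhibitory UMIs had 71.3 CPM in the core against 17.5 CPM in the distal library. The part of that level in the smaller ratios was not tested. In core oligodendrocyte barcodes 67 of 315 held a Pax2 UMI (21.3%), against 161 of 3026 (5.32%) in the distal library.

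**Figure D2:**
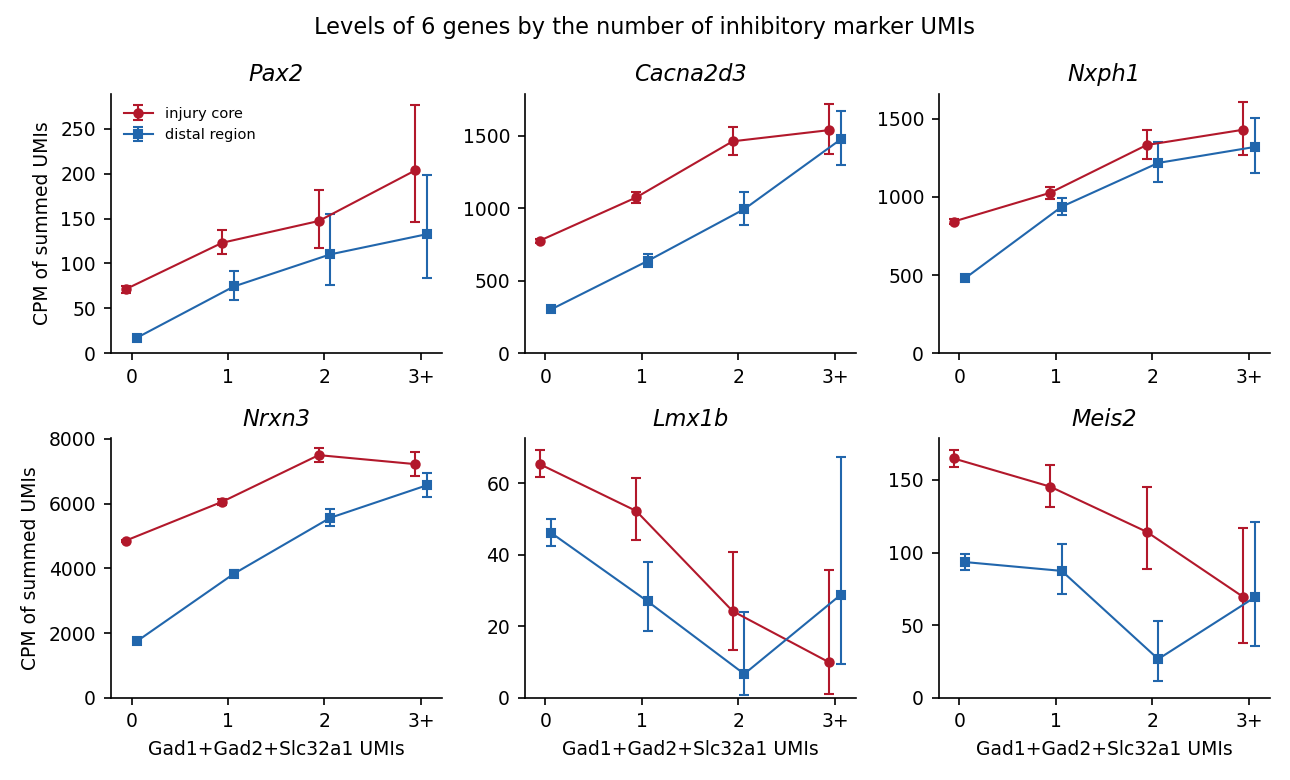
Each panel gives the level of 1 gene in CPM of summed UMIs against the number of Gad1, Gad2 and Slc32a1 UMIs per barcode, with Poisson 95% intervals, injury core circles and distal region squares. Pax2 in the core had 71.3 CPM without such UMIs and 204 CPM with 3 or more, while Lmx1b had 65.4 CPM and 9.93 CPM in those barcodes. The levels are not weighted for depth.

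Against inhibitory barcodes with Slc6a5 at equal depth, few genes were past the fold the same way in both libraries. Of 3541 genes with at least 50 CPM in the higher set of each library, 41 (1.16%) were at least 1.5-fold higher in members in both libraries and 36 (1.02%) were at least 1.5-fold lower. A further 30 genes were past 1.5-fold in opposite directions in the 2 libraries. The ratios of the 2 libraries were weakly related across genes (Pearson's r of log2 ratios 0.12, over genes that are not independent and share the same barcodes). In the core 192 of 241 members entered, since 49 lay in depth classes without any barcode with Slc6a5. By the rule for naming genes, 27 of these genes are described, and for 17 of them the counting interval included 1 in at least 1 library. The 10 whose intervals left out 1 in both libraries were Trpm3, Ebf1, Oprm1, Ift140, Cacng4, Stard13 and Frmd6 among the higher genes and Snrpn, March11 and Htr4 among the lower ones.

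Trpm3, a cation channel gated by heat and neurosteroids, stood apart by its level. It had 1888 CPM in members against 991 CPM in barcodes with Slc6a5 in the core, a 1.90-fold difference (1.69 to 2.16). In the distal library it had 1752 CPM in members against 804 CPM, a 2.18-fold difference (1.85 to 2.57). Trpm3 was read in 209 of 241 core members and 82 of 96 distal members, and no member held more than 4.3% of its core UMIs or 10.4% of its distal UMIs. The difference was thus spread over the set. Of the 27 named genes, Trpm3 alone was past 1.5-fold in both libraries under every alternative run. The members' own level was 1.44 times that of excitatory barcodes in the core and 1.03 times in the distal library, and it was 1.40 and 1.29 times that of barcodes without inhibitory UMIs. Barcodes with Slc6a5 therefore had the lowest Trpm3 level of these sets in both libraries.

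Ebf1, a transcription factor of neuronal differentiation, followed Trpm3 at a smaller ratio. It had 1138 CPM in core members against 680 CPM in core barcodes with Slc6a5 (1.67-fold, 1.45 to 1.94), and 1035 CPM against 592 CPM in the distal library (1.75-fold, 1.42 to 2.16). Relative to excitatory barcodes Ebf1 was at 0.88 times in core members and 0.51 times in distal members. Its relative Ebf2 was 1.5-fold (1.08 to 2.12) and 1.65-fold (0.92 to 3.21) higher than in barcodes with Slc6a5, and turned round in the distal library when barcodes were thinned to 1000 UMIs. Both belong to a list of 20 excitatory neuron genes, of which 4 could be tested and 2 were past the fold, where 1.16% of all tested genes were higher. The list had a median log2 ratio of 0.47 in the core and 0.91 in the distal library, against -0.01 over all tested genes in both. Summed over the list, members had 1803 CPM against 1217 CPM in barcodes with Slc6a5 in the core, and 1614 CPM against 876 CPM in the distal library, sums of which Ebf1 made up the larger part.

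Oprm1, the mu opioid receptor, was the only 1 of 21 peptide receptor genes high enough to be tested. It had 93.3 CPM in core members against 46.2 CPM in core barcodes with Slc6a5 (2.02-fold, 1.21 to 3.50), and 135 CPM against 52.6 CPM in the distal library (2.57-fold, 1.26 to 6.0). The distal value for barcodes with Slc6a5 rests on 17 UMIs. Oprm1 was also 1.71-fold and 2.28-fold higher in members than in excitatory barcodes, so it was high against both neuron sets. Its direction held under every alternative run, with log2 ratios from 0.41 to 2.15 over both libraries.

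The remaining named genes that were higher in members had lower levels and wider intervals. Ift140, of ciliary transport, was 3.47-fold (1.37 to 11.2) and 2.52-fold (1.19 to 5.67) higher in core and distal members, on 7 and 13 UMIs in barcodes with Slc6a5. Cacng4, an auxiliary subunit of AMPA receptors, was 1.80-fold and 2.49-fold higher. Stard13, a GTPase activating protein, was 1.94-fold and 1.96-fold higher. Baiap3, of dense-core vesicle release, was 2.17-fold and 2.34-fold higher. Ptpro, a receptor tyrosine phosphatase, was 1.70-fold and 2.82-fold higher, and Upf3b, of nonsense-mediated decay, 2.02-fold and 1.70-fold. The kinase Hunk was 1.77-fold and 6.38-fold higher, the membrane skeleton gene Epb41l2 1.72-fold and 2.25-fold, Frmd6 1.97-fold and 2.23-fold, and Wwc2 2.07-fold and 1.95-fold. Of these 10 genes, Stard13 kept its direction under every alternative run and the other 9 did not.

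Snrpn, March11 and Htr4 were lower in members. Snrpn, an imprinted gene whose reads cannot be told apart from the overlapping Snurf, had 86.5 CPM in core members against 169 CPM in core barcodes with Slc6a5 (0.51, 0.34 to 0.76). In the distal library it had 99.3 CPM against 195 CPM (0.51, 0.34 to 0.77). It was also at 0.52 and 0.47 times the level of excitatory barcodes in core and distal members, but it turned round in the core when barcodes were thinned to 1000 UMIs. March11, a ubiquitin ligase, was at 0.49 times (0.34 to 0.71) and 0.53 times (0.33 to 0.86), and its direction held under every alternative run. Its members' level was 0.91 and 0.98 times that of excitatory barcodes. Htr4, an excitatory serotonin receptor, had 110 CPM in core members against 179 CPM (0.61, 0.43 to 0.88) and 46.5 CPM in distal members against 119 CPM (0.39, 0.21 to 0.72), and it was the only 1 of 8 tested monoamine and acetylcholine receptors past the fold. Htr4 turned round in the core when the comparison barcodes had to hold at least 2 Slc6a5 UMIs.

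The other 10 named genes were lower on few UMIs. They included the mitochondrial genes Nt5m (0.40 in both libraries), Dnajc15 (0.46 and 0.39 in core and distal members) and Mthfd1l (0.53 and 0.36). Gas6, a ligand of TAM receptor kinases, was at 0.51 and 0.54 times, and Rragb, a GTPase of amino acid sensing, at 0.52 and 0.53 times. Zmat3, a p53 target, was at 0.57 and 0.55 times, and Tmem131l at 0.52 times in both libraries. The peptidase Dpp8 was at 0.52 and 0.41 times, Nacc2 at 0.55 and 0.57 times and the noncoding Gm48383 at 0.51 and 0.58 times. Zmat3 and Tmem131l kept their direction under every alternative run, and the other 8 did not.

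The other gene groups gave counts near the share over all genes, of which 1.16% were higher and 1.02% lower, so nothing is read from these counts about the groups. The counts were 0 of 6 for glycine receptors and inhibitory postsynaptic proteins, 0 of 8 for GABA-A receptor subunits, 0 of 16 for ionotropic glutamate receptors and 0 of 7 for metabotropic receptors. They were 0 of 23 for potassium channels, 0 of 18 for sodium, calcium and HCN channels, 0 of 17 for cadherins, 0 of 21 for contactins and neurexins, and 0 of 23 for axon guidance genes. Gphn, the scaffold of inhibitory synapses, was at 0.95 and 1.04 times in core and distal members, and the glycine receptor subunit Glra1 at 0.88 and 1.15 times. Pax2 was at 1.05 and 0.98 times, Nxph1 at 1.19 and 0.95 times and Cacna2d3 at 0.96 and 1.03 times. These markers of inhibitory neurons thus lay near 1 in both libraries. The 4 tested ventral inhibitory transcription factors had a median log2 ratio of -0.53 in the core and -0.27 in the distal library, where the median over all tested genes was -0.01 in both, and 0 of the 4 were past the fold in both libraries. Esrrg, of that list, was at 0.70 and 0.64 times. Oligodendrocyte markers, summed over 10 genes with 0 of 3 tested past the fold, had 519 CPM in members against 399 CPM in barcodes with Slc6a5 in the core, and 3347 CPM against 2398 CPM in the distal library. None of the 10 was at 0 in members, and the part of this glial RNA in the ratios was not tested.

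**Figure D3:**
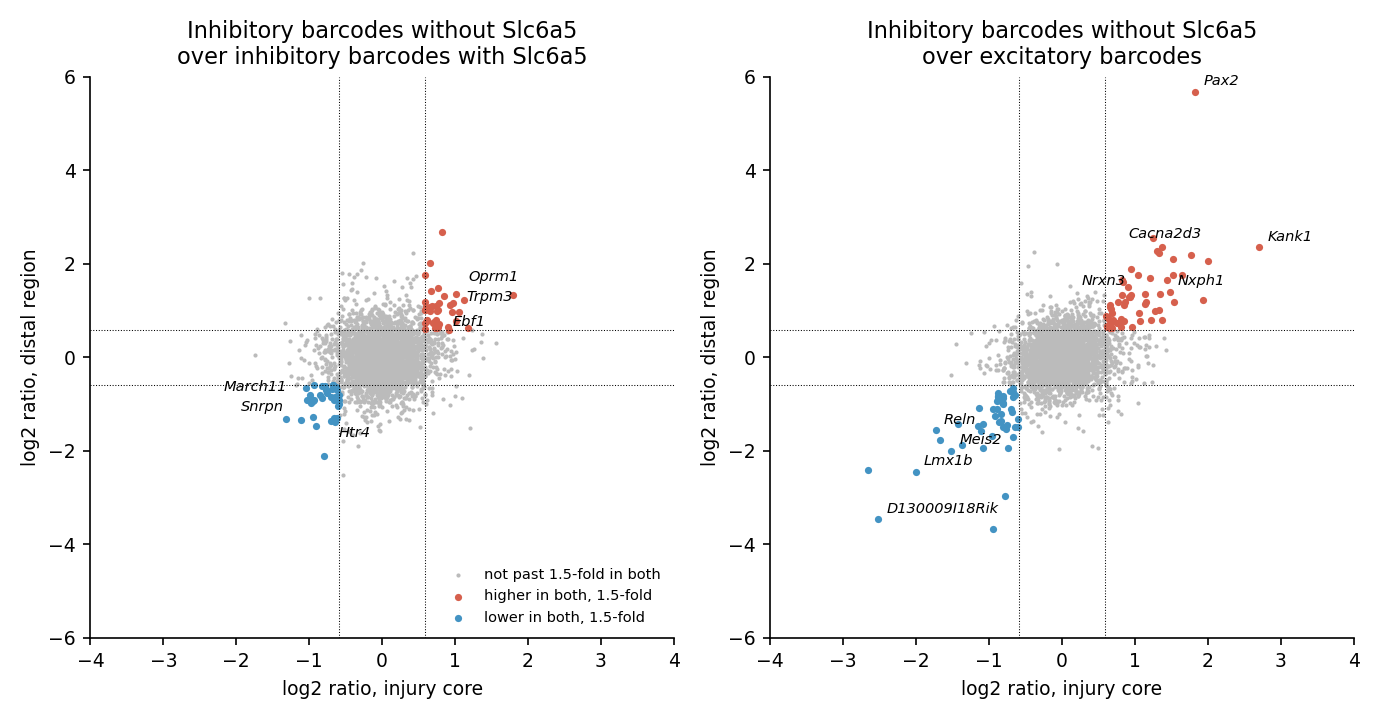
Each point is a gene with at least 50 CPM, placed by its log2 ratio in the injury core (horizontal) and in the distal region (vertical), members over inhibitory barcodes with Slc6a5 on the left and over excitatory barcodes on the right, with dotted lines at 1.5-fold. The left cloud holds 41 genes higher and 36 lower in both libraries, and the right cloud 58 higher and 46 lower.

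A comparison with excitatory barcodes, added after the data had been seen, gives the scale of a difference between neuron classes. Excitatory barcodes carried at least 2 Slc17a6 UMIs with 0 UMIs of Slc6a5 and of the 3 inhibitory genes and the same limit on Pkd2l1 and Pkd1l2, and there were 132 in the core and 67 in the distal library. Of 3499 genes tested, 58 (1.66%) were at least 1.5-fold higher in members in both libraries and 46 (1.31%) at least 1.5-fold lower, with 26 in opposite directions. Pearson's r between the libraries was 0.32 across genes. Of the 34 named genes, 31 had counting intervals that left out 1 in both libraries, and 22 were past 1.5-fold in both libraries under every alternative run.

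Pax2 had 162 CPM in core members against 45.7 CPM in core excitatory barcodes (3.54-fold, 2.18 to 6.04). In the distal library it had 118 CPM against 2.30 CPM on 2 excitatory UMIs, a ratio of 51.5 (13.6 to 436). Cacna2d3 had 1482 CPM against 435 CPM in the core (3.40-fold, 2.91 to 4.0) and 1171 CPM against 257 CPM in the distal library (4.55-fold, 3.60 to 5.82). Kank1, an adaptor of cell adhesions, had 83.5 CPM against 12.8 CPM (6.51-fold) and 90.9 CPM against 17.8 CPM (5.10-fold). Nxph1 was 2.78-fold and 2.65-fold higher in core and distal members, and Nrxn3 2.19-fold and 2.57-fold. Rorb, a nuclear receptor of dorsal horn inhibitory interneurons, was 2.59-fold and 5.14-fold higher.

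The kinase Prkcq was 4.02-fold and 4.17-fold higher in core and distal members, and the endocannabinoid hydrolase Mgll 3.13-fold and 3.40-fold. The kainate receptor subunit Grik3 was 2.5-fold and 4.71-fold higher, and the metabotropic glutamate receptor Grm3 2.43-fold and 1.99-fold. Stac, a regulator of calcium channels, was 2.88-fold and 4.28-fold higher, Ccbe1 2.88-fold and 3.40-fold, Nwd2 2.71-fold and 3.17-fold, and the noncoding Gm3764 2.55-fold and 2.56-fold. The semaphorin Sema3e was 1.61-fold and 1.54-fold higher, with intervals that included 1 in both libraries. The glypican Gpc5 was 2.30-fold and 3.22-fold higher and the glutamate transporter Slc1a2 1.69-fold and 1.67-fold. Gpc5 and Slc1a2 were the 2 tested genes of the astrocyte marker list, where 1.66% of all tested genes were higher. That list summed to 2196 CPM in members against 987 CPM in the core, and 2257 CPM against 875 CPM in the distal library. Gpc5 made up 2106 and 1940 CPM of the members' sums. The defining markers Gfap and Aqp4 had 1 UMI each in core members and 28 and 5 UMIs in distal members. The part of astrocyte RNA in these ratios was not tested.

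Of the genes lower in members than in excitatory barcodes, the 2 with the smallest ratios, by the weaker of the 2 libraries, were long noncoding RNAs that lie on either side of Pou4f1, a transcription factor of sensory and dorsal excitatory neurons. On GRCm38, Pou4f1 spans chromosome 14 from 104461676 to 104467999, D130079A08Rik lies at 104288431 to 104459336 and D130009I18Rik at 104612791 to 104966783. D130009I18Rik had 24.4 CPM in core members against 140 CPM in core excitatory barcodes (0.17, 0.10 to 0.29) and 10.6 CPM against 116 CPM in the distal library (0.09, 0.03 to 0.24). D130079A08Rik was at 0.16 and 0.19 times in core and distal members, on 7 and 6 member UMIs, and turned round in the distal library under 2 alternatives. Pou4f1 itself, looked up after these values were seen, had 1 and 0 UMIs in core and distal members and 6 and 1 UMIs in excitatory barcodes, too few for a ratio.

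Of 5 tested genes of the excitatory neuron list 2, Lmx1b and Ebf2, were lower in members and 3 were not past the fold. Lmx1b had 20.5 CPM in core members against 82.7 CPM (0.25, 0.13 to 0.46) and 14.8 CPM in distal members against 80.6 CPM (0.18, 0.07 to 0.46). Reln, the secreted glycoprotein reelin, was at 0.30 and 0.34 times, and Meis2, a homeobox factor, at 0.35 and 0.25 times. Meis2 stands in the list of dorsal inhibitory transcription factors, of which 4 were tested, 2 (Pax2 and Rorb) were higher, 1 was lower and Satb1 was not past the fold. Cacna2d1, the gabapentin-binding subunit of calcium channels, was at 0.39 and 0.27 times, the reverse of its paralogue Cacna2d3. Tmem163 was at 0.31 and 0.29 times, Syt3, a synaptotagmin, at 0.37 in both libraries, and Ntng1, a netrin-G ligand, at 0.45 and 0.36 times. Tafa1, a secreted neurokine, was at 0.46 and 0.34 times, Gm12296 at 0.47 and 0.37 times, and Shisa6, which binds AMPA receptors and overlaps Gm12296 on the opposite strand, at 0.46 and 0.47 times. Tacr1, the substance P receptor, was at 0.53 and 0.42 times, and Ebf2 at 0.63 and 0.30 times. Tacr1, Ebf2 and Sema3e turned round in the core under 1 alternative each. General neuronal genes gave 0 of 10 tested past the fold, GABA-A receptor subunits 0 of 8 and glycine receptors with inhibitory postsynaptic proteins 0 of 7, near the 1.66% higher and 1.31% lower over all tested genes.

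**Figure D4:**
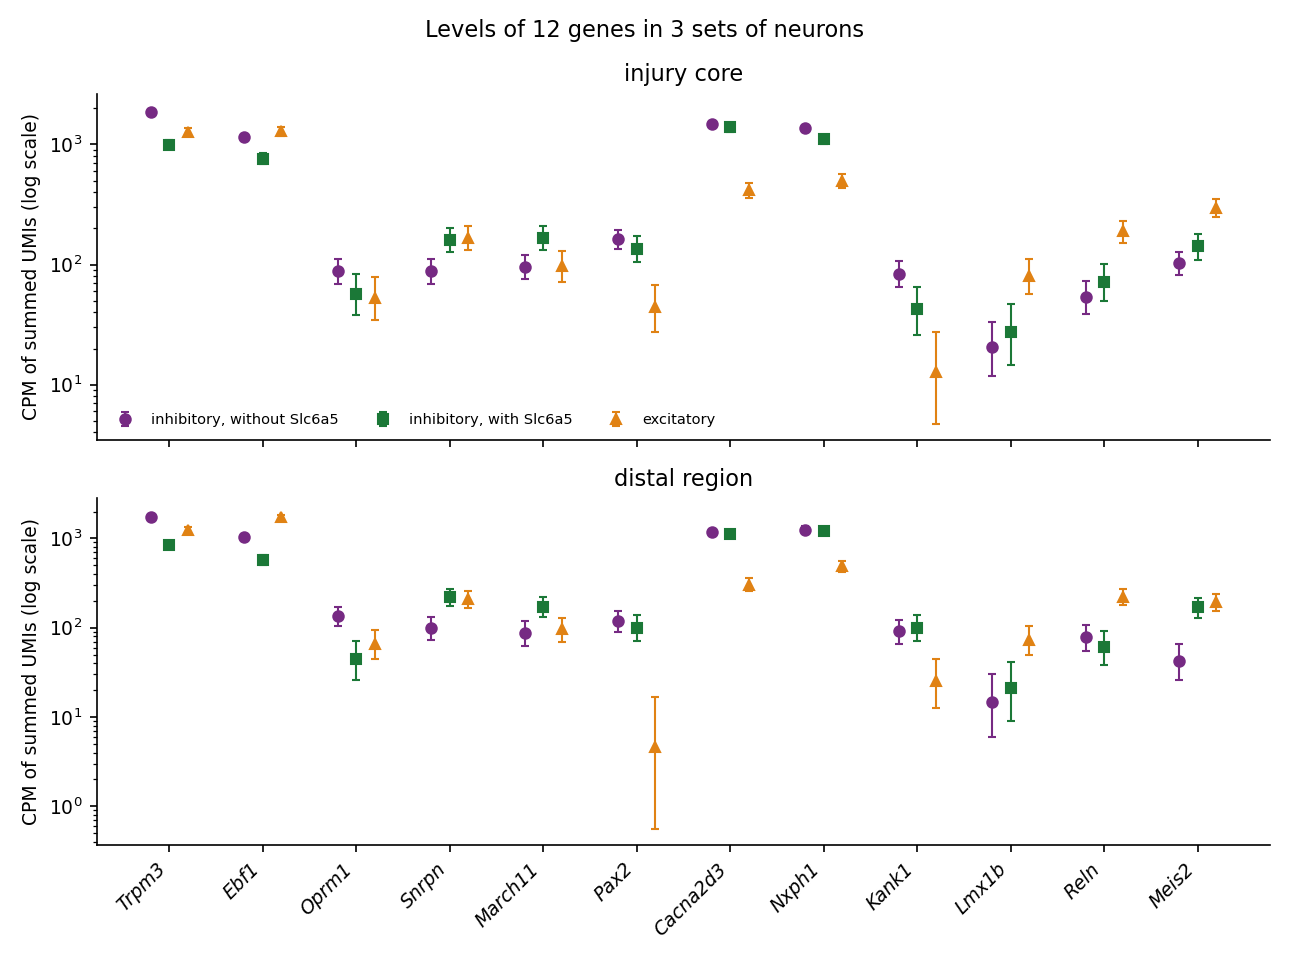
The vertical log axis gives CPM of summed UMIs without weighting, with Poisson 95% intervals, for 12 named genes in members (circles), inhibitory barcodes with Slc6a5 (squares) and excitatory barcodes (triangles), the injury core above the distal region. Trpm3 was higher in members than in barcodes with Slc6a5, while Pax2, Cacna2d3 and Nxph1 set both inhibitory sets above the excitatory set and Lmx1b and Reln set them below it.

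Genes that divide dorsal horn inhibitory neurons into subtypes were sparse among the members. After thinning each barcode to 1000 UMIs, which left 215 core and 93 distal members, 73.0% of core members (66.6 to 78.8%) and 74.2% of distal members (64.1 to 82.7%) held at least 1 of 22 subtype genes. The share was 67.5% and 68.2% in core and distal barcodes with Slc6a5, 51.2% and 42.4% in excitatory barcodes, and 50.7% and 33.6% in oligodendrocyte barcodes. Without thinning it was 90.0% in core and 92.7% in distal members. Most of this was Nxph1, read in 60.0% of thinned core members and 54.8% of thinned distal members, against 41.6% and 23.2% of oligodendrocyte barcodes. Rorb was read in 14.0% and 15.1% of thinned core and distal members, against 6.76% and 5.37% of oligodendrocyte barcodes.

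Neuropeptide genes were read in few members. Without thinning, Penk (enkephalin) was read in 11 of 241 core members (4.56%) and 6 of 96 distal members (6.25%), against 5.71% and 3.37% of oligodendrocyte barcodes. Npy was read in 1.24% and 2.08% of core and distal members, against 0.952% and 0.925% of oligodendrocyte barcodes. Sst (somatostatin) was read in 1.66% and 4.17%, against 1.90% and 3.80%, and Tac1 (substance P) in 2.07% and 5.21%, against 2.54% and 2.02%. Pdyn (dynorphin) was read in 0 core and 2 distal members, against 2.22% and 0.628% of oligodendrocyte barcodes. Gal (galanin) was read in 0 core and 0 distal members, which allows shares of up to 1.24% and 3.12% of barcodes with a UMI, against 0 of 315 and 7 of 3026 oligodendrocyte barcodes. In the core the shares in members were thus at or near those in oligodendrocyte barcodes, and in the distal library they rest on at most 6 members each. Neurod1, the RNA of the switched-on factor, was read in 3 core and 4 distal members, and transgene and endogenous RNA could not be told apart. Cdh3, a cadherin of some dorsal horn interneurons, was read in 26 core members (10.8%) and 9 distal members (9.38%), against 3.17% and 0.859% of oligodendrocyte barcodes. These unthinned shares are not at equal depth. Members had medians of 2583 UMIs in the core and 4217 UMIs in the distal library, against 2428 and 2311.5 UMIs in oligodendrocyte barcodes. Over pairs of 73 genes, 444 pairs were expected in at least 5 members if genes were independent within depth classes. Of these, 10 pairs were past 1.5 times the expected number and 21 were below the mirrored limit. The pair furthest above was Qrfpr, a peptide receptor gene, and Pax2, read together in 11 members where 5.56 were expected. Rspo3, a secreted Wnt agonist, and Zfhx3 were read together in 2 where 9.95 were expected. These pairs were picked after their values were seen and have no test.

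Core members differed from distal members in many genes. Of 4284 genes tested at equal depth, 634 (14.8%) were at least 1.5-fold higher in core members and 919 (21.5%) at least 1.5-fold lower. Weighting the deeper distal members to the core left the information of 207236 of their 473286 UMIs. The median log2 ratio over all tested genes was 0.00. Without the distal members that held Xist, 927 genes were higher and 1214 lower. Of these, 411 and 467 were shared with the 634 and 919 genes. This left the 17 distal members with Y-linked RNA alone and the 20 with neither. No replicate separates region from library, animal or sex make-up, so these cannot be told apart.

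The widest differences were in glial and sex-linked RNA. All 8 tested oligodendrocyte markers were lower in core members, and the 10 markers summed to 523 CPM in core members against 3408 CPM in distal members. Cldn11, a claudin of the myelin sheath, had 3.85 CPM against 98.6 CPM (0.04, on 3 core UMIs against 45 distal UMIs). Of 6 tested astrocyte markers 5 were lower, among them Gfap (1 core UMI against 28 distal UMIs) and Slc7a10 (1 against 9). Of 4 tested markers of oligodendrocyte precursors, Vcan (0.23) and Ptprz1 (0.28) were lower. Xist had 0 UMIs in core members against 292 in distal members, and its antisense partner Tsix 3 against 74. Maob, Trp63 and Slc39a12 were also named as lower but rest on 3 to 12 distal and 0 to 2 core UMIs, and Trp63 and Slc39a12 turned round under alternatives. Whether glial RNA of the tissue sets other ratios of this comparison was not tested beyond leaving out barcodes with oligodendrocyte UMIs.

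Of 6 tested Hox genes, whose expression differs with position along the cord, 4 were at least 1.5-fold higher in core members, 0 were lower, and Hoxb8 (1.28) and Hoxc6 (1.21) were not past the fold. Over all tested genes 14.8% were higher and 21.5% lower, and the 17 genes summed to 957 CPM in core members against 527 CPM in distal members. Hoxc8 had 159 CPM against 78.9 CPM (2.02-fold, 1.36 to 3.08), and Hoxc4 227 CPM against 120 CPM (1.90-fold, 1.03 to 3.92). Hoxd3 was 1.85-fold and Hoxc9 1.51-fold higher, both named here after their values were seen. Below the level for testing, the posterior genes Hoxc10, Hoxd11, Hoxa10 and Hoxd10 had 26, 19, 15 and 6 UMIs in core members against 2, 0, 0 and 0 UMIs in distal members. These are raw counts, out of 778759 UMIs in core members and 473286 in distal members. The posterior genes were named outside the rule for naming genes.

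Of 5 tested factors of late-born neurons 4 were lower in core members, where 21.5% of all tested genes were lower. Nfib had 157 CPM in core members against 390 CPM in distal members (0.40, 0.29 to 0.55), Nfia 178 CPM against 415 CPM (0.43, 0.31 to 0.61), Prox1 was at 0.28 times and Nfix at 0.30 times. Nfib and Nfia were named here after their values were seen. Neither was followed under the alternatives, including those without barcodes with oligodendrocyte UMIs and without distal members that held Xist. Of 5 tested early-born factors 3 were not past the fold and 2 were higher, Zfhx3 with 430 CPM against 233 CPM (1.85-fold) and Hoxc8, which stands in that list too. Without the distal members that held Xist, Prox1 and Nfix turned round. Subtype and identity factors lay in both directions. Meis2 was 2.92-fold and Esrrg 1.81-fold higher in core members, while Rorb had 157 CPM against 312 CPM (0.50, 0.35 to 0.73), Foxp2 was at 0.36, Foxp4 at 0.20 and Pax8 at 0.66 times. Kcnip2, a channel subunit and subtype marker, was 1.57-fold higher on 15 distal UMIs. Rorb, Foxp2, Foxp4, Pax8 and Kcnip2 turned round under at least 1 alternative. The counting interval included 1 for Foxp4 (0.04 to 1.89), Pax8 (0.33 to 1.43), Kcnip2 (0.77 to 3.56) and Nfix (0.11 to 1.06). The ratio of Foxp4 rests on 8 core and 6 distal UMIs.

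**Figure D5:**
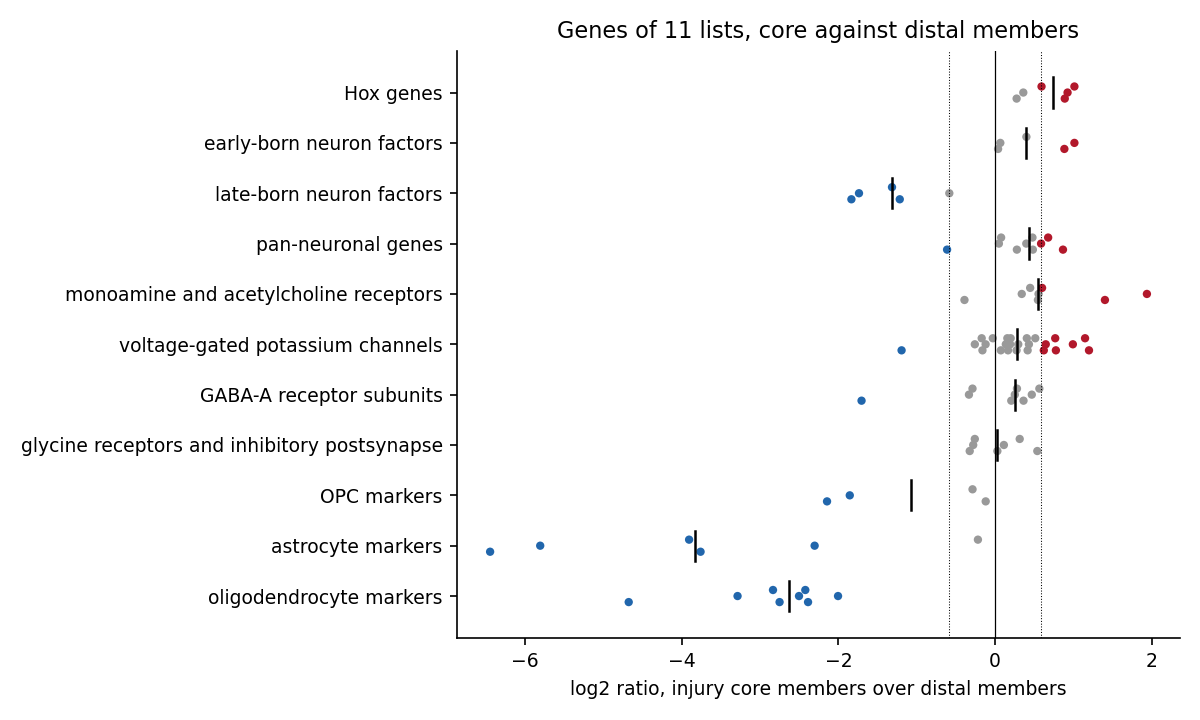
Each point is a tested gene of the list named at the left, placed by its log2 ratio of injury core members over distal members, with the list median as a vertical bar and dotted lines at 1.5-fold. Hox genes had a median log2 ratio of 0.74 and late-born factors one of -1.32, while glycine receptors and inhibitory postsynaptic genes had one of 0.03 with 0 of 7 past the fold.

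Receptors, channels and adhesion genes gave the other named differences between regions. Higher in core members were the nicotinic receptor subunit Chrna7 (3.83-fold, 2.10 to 7.55), the serotonin receptor Htr4 (2.64-fold), the glutamate receptors Grm4 (3.90-fold) and Grik3 (2.18-fold), and the potassium channel genes Kcnab2 (2.30-fold) and Kcnh1 (2.22-fold). The calcium channel genes Cacna1c (1.55-fold) and Cacna2d2 (1.54-fold), the cadherins Cdh4 (2.76-fold) and Cdh13 (1.93-fold), the contactin family genes Cntnap5b (1.82-fold) and Cntn5 (1.80-fold), and the guidance genes Unc5d (2.08-fold) and Ntng1 (1.78-fold) were also higher. Lower in core members were the GABA-A subunit Gabra4 (0.31), the potassium channel Kcna2 (0.44), Hcn2 (0.64), the cadherins Cdh10 (0.52) and Cdh19 (0.06), the semaphorins Sema3c (0.53) and Sema3e (0.62), and the GABA transporter Slc6a11 (0.53). The counting interval included 1 for Gabra4 (0.10 to 1.28), Kcna2 (0.16 to 1.48), Hcn2 (0.28 to 1.81), Sema3c (0.28 to 1.09) and Slc6a11 (0.14 to 3.52). Kcna2, Hcn2, Sema3c, Slc6a11, Cacna2d2 and Ntng1 turned round under at least 1 alternative.

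General neuronal genes were not evenly higher. Of 10 tested, 3 were higher in core members, among them the noncoding RNAs Meg3 with 15023 CPM against 8236 CPM (1.82-fold, 1.74 to 1.91) and Snhg11 (1.60-fold), and the tubulin Tubb3 was lower (0.65, 0.36 to 1.27). Gad1 was at 0.93 times, Gad2 at 0.97 times and Slc32a1 at 1.32 times, as the rule that chose members on their sum in both libraries would hold them close. The genes with the largest ratios over all were Chst1, a sulfotransferase (79.6 CPM against 12.5 CPM, 6.35-fold), Samd5 (5.84-fold) and Rusc1 (127 CPM against 22.5 CPM, 5.64-fold). Taco1, a mitochondrial translation factor, had 199 CPM against 48.1 CPM (4.14-fold), Gm32014 was 4.46-fold, Smg9 4.25-fold, the interferon factor Irf9 4.20-fold and Arfgap1 3.99-fold higher. Of the 59 genes named between regions, 43 kept their direction and 27 stayed past 1.5-fold under every alternative run.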

How the data were processed

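The deposited values are raw UMI counts per gene and barcode of single-nucleus 3′ RNA-seq, 1 matrix per region, written by Cell Ranger 7.1.0 per the file headers. The submitters' processing notes also name Seurat and the builds mm10 and GRCh38, with no role given, and gene positions on GRCm38 are from the annotation. The authors' cell calls were kept as deposited, with no further filter and no doublet caller, and no cell type annotation was used. Members and comparison sets were chosen by the UMI limits given in the text. Their counts were summed, divided by their total UMIs and given as CPM. Comparison barcodes were weighted to the members over 10 classes of UMIs per barcode, with members in classes without comparison barcodes left out. A gene was tested when the higher set reached 50 CPM in each library compared, and was past the fold at 1.5-fold, the same way in both libraries where both were used. "Tested" means only that it reached this level. The 7 genes of the rule were left out of these counts. Ratios have exact conditional binomial intervals, levels exact Poisson intervals and shares exact binomial (Clopper-Pearson) intervals, all at 95%, for counting error only. UMIs remove PCR duplicates but not the other sources of error. A count of 0 was read against a floor of 3 counts. Named genes were the 12 per direction with the largest smaller fold of the 2 libraries, up to 4 per direction and gene list, up to 2 high genes per list that were not past the fold, and, between regions, the 8 per direction with the largest ratio and up to 2 per direction and list. The members, the 30 gene lists and this rule were chosen with earlier results of these data known. The comparison with excitatory barcodes, the alternative without distal members that held Xist, and the values of Pou4f1 were added after the data had been seen. Alternatives changed depth weighting, thinning, the CPM minimum, filters on barcodes, the UMI limits and the scaling. Values of some named genes are not reported here, although counts over genes include them. The procedure was tested on simulated counts. Python 3.11.15, numpy 2.4.6, scipy 1.17.1, pandas 2.3.3 and matplotlib 3.10.9 were used.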

Additional observations from a re-analysis of the deposited data

Results flagged for a closer look

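The distal library, labelled male, held 14779 UMIs of Xist, a gene outside the comparisons planned here, against 16 in the core library, which is labelled male too. Among distal barcodes 2978 held Xist alone, 1035 held Y-linked RNA alone, 1280 held both and 2159 held neither.

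Between inhibitory barcodes without and with Slc6a5, 30 genes were past 1.5-fold in opposite directions in the 2 libraries, and this difference between libraries was not tested. By UMIs in core members the first of them was Syt16, a synaptotagmin, at 1.61 times in core members and 0.57 times in distal members, and the next was Ndfip1, a ubiquitin ligase adaptor, at 1.56 and 0.64 times. Ypel2 lay the other way, at 0.66 and 1.5 times.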

How the results depend on the processing

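No paired analysis was possible because each region has 1 library. The cause of the changes below was not tested, apart from the number of genes that a CPM minimum lets in. Against barcodes with Slc6a5, 41 genes were higher and 36 lower. Thinning to 1000 UMIs gave 139 higher and 173 lower, of which 9 and 11 were shared with those. A minimum of 20 CPM gave 213 and 151, and one of 200 CPM gave 2 and 0. Barcodes of at least 3000 UMIs gave 78 higher. Leaving out barcodes with oligodendrocyte UMIs gave 69 lower. At least 3 inhibitory UMIs gave 170 higher and 124 lower, of which 11 and 8 were shared with the 41 and 36. At least 2 Slc6a5 UMIs in the comparison set gave 174 and 117, of which 18 and 4 were shared. No weighting for depth gave 37 and 24, of which 20 and 11 were shared. Against excitatory barcodes, 58 were higher and 46 lower. Thinning gave 211 and 175, of which 39 and 30 were shared with the 58 and 46. A minimum of 20 CPM gave 195 and 145, and one of 200 CPM 16 and 13. Barcodes of at least 3000 UMIs gave 94 higher, leaving out oligodendrocyte UMIs 100 higher and 77 lower, leaving out the 5% deepest barcodes 70 lower, and at least 3 inhibitory UMIs 100 higher and 97 lower. Between regions, 634 were higher and 919 lower in core members. Thinning gave 962 higher, 20 CPM 1363 and 2017, 200 CPM 149 and 119, and at least 3 inhibitory UMIs 1074 higher. Of the 634 higher genes, 360 were shared after thinning and 342 at 3 inhibitory UMIs. The 337 members numbered 158 at 3000 UMIs and 73 at 3 inhibitory UMIs. The share of members with a subtype gene, 73.4% thinned to 1000 UMIs, was 85.0% thinned to 2000 and 90.8% unthinned.

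Direction turned for these log2 ratios over barcodes with Slc6a5. Thinning gave 0.30 for Snrpn in the core and, in the distal library, -0.34 for Wwc2, 0.51 for Nt5m and for Rragb, -0.66 for Frmd6 and for Ift140, -0.30 for Ebf2 and -0.34 for Upf3b. At 3000 UMIs Dnajc15 was 0.51 in the distal library. Without oligodendrocyte UMIs the distal values were 0.036 for Nacc2, -0.24 for Epb41l2 and -0.21 for Baiap3. At 3 inhibitory UMIs they were 0.74 for Nacc2, 0.037 for Gas6, 0.58 for Dpp8, 0.41 for Nt5m and 0.28 for Gm48383, and in the core -0.44 for Ptpro and -0.89 for Hunk. At 2 Slc6a5 UMIs the distal values were 0.0031 for Nacc2, 0.28 for Nt5m, -0.29 for Frmd6 and 1.22 for Dnajc15, and the core values 0.33 for Mthfd1l, -0.031 for Cacng4 and 0.28 for Htr4. Over excitatory barcodes thinning gave -0.15 for Sema3e and 0.19 for Tacr1 in the core and 1.09 for D130079A08Rik in the distal library. D130079A08Rik was 0.0014 there without oligodendrocyte UMIs, and Ebf2 0.31 in the core at 3 inhibitory UMIs.

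Between regions, no weighting gave 0.041 for Slc6a11, 0.019 for Tubb3 and 0.073 for Hcn2, and thinning -0.016 for Cacna2d2. At 3000 UMIs Slc39a12 was 0.21, Pax8 0.72, Kcna2 0.24, Sema3c 0.21 and Foxp4 0.75. Without oligodendrocyte UMIs Kcna2 was 0.12, Slc6a11 0.70 and Foxp4 0.74. At 3 inhibitory UMIs Slc39a12 was 0.88, Pax8 1.68, Ntng1 -0.073, Slc6a11 1.71, Hcn2 0.19, Trp63 0.88 and Rorb 0.30. Without distal members holding Xist, Prox1 was 1.39, Sema3c 0.48, Foxp2 0.018, Slc6a11 1.21, Nfix 0.021, Hcn2 0.12 and Kcnip2 -0.24. For named genes over barcodes with Slc6a5, 434 values kept their direction within the main counting interval, 26 left that interval and 26 turned round. Over excitatory barcodes these numbers were 479, 60 and 5, and between regions 426, 77 and 26. Such intervals are wide for genes with few UMIs. The filter at 300 genes and 5% mitochondrial UMIs left out 0 core and 0 distal members. Depth limits genes near 50 CPM, which rest on some 10 to 40 UMIs per set.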

Other observations

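Genes of nerve injury and immediate early genes summed to 166 CPM in core members and 167 CPM in distal members. Of 14 such genes, 1 reached the level for testing between regions and it was not past the fold. Atf3, Sprr1a, Fos and Fosb had 0 UMIs in both core and distal members. Gap43, a growth cone protein, had 84.8 CPM in core members against 59.1 CPM in distal members (ratio 1.43, 0.77 to 2.89).

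Klhl14 was read in 23 of 241 core members (9.54%) and 10 of 96 distal members (10.4%), against 18.1% and 27.3% of core and distal barcodes with Slc6a5, which were deeper. In oligodendrocyte barcodes, which had lower median UMIs than the members, the shares were 5.08% in the core and 3.50% in the distal library. Markers of motor and cholinergic neurons gave 0 genes at the level for testing, and so did endothelial and fibroblast markers and genes of neurons that contact the cerebrospinal fluid.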
